A study of Rattus norvegicus with 6 samples.

Results

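The accessible sites (ACS) nearest to genes of synaptic adhesion and axon guidance were compared between islets of newborn and adult rats. A site was a member if the symbol of its nearest gene in the deposited annotation began with *Nrxn*, *Nlgn*, *Cntn*, *Lrrtm*, *Lrfn*, *Slitrk*, *Flrt*, *Tenm*, *Sema*, *Ntn*, *Plxn* or *Unc5*. This gave 1181 of the 101603 distinct ACS and 63 of the 14736 nearest genes. The letters also caught *Cntnap5b*, a contactin-associated protein gene with 85 ACS, and *Unc5cl* and *Unc50*, with 12 and 1 ACS, whose products are not netrin receptors. A site may act on a gene other than the nearest.

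Accessibility was measured by ATAC-seq, in which the Tn5 transposase inserts sequencing adapters into open DNA, so that the number of integrations in a site stands for its openness. The adult group held 3 libraries, each from the dissociated islet cells of 1 adult male Sprague-Dawley rat. The P10 group (postnatal day 10) held 3 libraries from mixes of a few pups, male and female, of 3 litters. No treatment is listed for either group, and no sort of cell types is stated for these libraries. By the paper's methods, pup pancreases were shaken by hand in collagenase. In adults the collagenase was injected into the pancreatic duct and the digestion was longer. Age, sex, the pooling of animals and the digestion differ together between the groups and cannot be told apart. In such bulk samples, fewer cells of a type and fewer integrations per cell cannot be told apart either.

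The genes of this group encode surface and secreted proteins with which neurons find and hold their partners. Neuroligins, LRRTM proteins and latrophilins sit across the synaptic cleft from neurexins, teneurins and FLRT proteins, while semaphorins and netrins steer growing axons through plexin, neuropilin, DCC and UNC5 receptors. Islet endocrine cells share much of their secretory machinery with neurons, beta cells make neuroligins and neurexins, and islets are reached by nerve fibres, Schwann cells and vessels that read the same guidance cues.

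The adult libraries held 7916919 to 11903909 integrations in ACS and the P10 libraries 13491534 to 21168463, so that counting error weighed more on the adult values. Values are given as CPM (counts per 1e+06 integrations in ACS) after TMM scaling (trimmed mean of M values), with factors from 0.93 to 1.04. Libraries of 1 age differed by more than counting error over all ACS, and no pair was treated as a repeat. The main ACS over *Ins1* and *Ins2*, the insulin genes, were open in every library and called Down without overlap. *Ins1* measured 75.1 to 94.9 CPM in adults and 105.6 to 203.0 CPM at P10 (log2 fold change -0.75, SE 0.18, edgeR FDR 0.00742), and *Ins2* 4.25 to 6.42 and 7.77 to 17.7 CPM (log2 fold change -1.12, SE 0.29, edgeR FDR 0.0133). That over *Gcg*, the glucagon gene, was at 9.74 to 14.8 CPM in adults and 11.1 to 16.1 CPM at P10 and was not called. Summed over the ACS of listed marker genes, the alpha cell, acinar, duct, endothelial, stromal and Schwann cell lists were higher in all 3 adult libraries than in any P10 library. The TMM factors were 0.930 to 0.995 in adults and 1.016 to 1.045 at P10. On this scale the sum over all ACS was therefore also higher in every adult library. A higher adult sum of a list is thus not by itself a gain of that list. The lowest adult library was just above the highest P10 library for endothelial cells (7 of 7 markers with an ACS, 403.7 to 489.6 against 379.7 to 392.2 CPM) and for Schwann cells (5 of 8 markers, 374.6 to 442.0 against 318.0 to 374.2 CPM, with *Sox10* among those without a listed ACS). Neuron markers overlapped between the ages (5 of 7 markers, 423.5 to 489.1 against 406.5 to 490.6 CPM), as did beta, delta, immune and cycling markers, and no ACS was listed at *Ppy*. The part of these lists in the results that follow was not tested.

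Sequences could be shown only for gene starts, as RefSeq gives them on the GRCr8 assembly. Of the 7 genes whose start lay in a called member ACS, 5 are in the RefSeq promoter table used here, and the 250 bases before their start are printed because of those calls. The other 2 are *Sema3b* and *Sema3f*. The windows were chosen by gene, not by site, and the positions on GRCr8 are not those of the Rn5 assembly on which the ACS are given. Each runs 5′ to 3′ on the strand of the gene and ends at the last base before the start. Capitals mark TGANTCA, the AP-1 motif, and CAGGTG, an E-box read by Scratch, Snail and ZEB factors, on either strand. *Cntn4* lies at chr4:140180571-140180820 on the + strand, *Flrt3* at chr3:148461406-148461655 on the - strand, *Sema6d* at chr3:132337106-132337355 on the + strand, *Sema4f* at chr4:116995443-116995692 on the - strand and *Slitrk6* at chr15:93984432-93984681 on the - strand.
Cntn4: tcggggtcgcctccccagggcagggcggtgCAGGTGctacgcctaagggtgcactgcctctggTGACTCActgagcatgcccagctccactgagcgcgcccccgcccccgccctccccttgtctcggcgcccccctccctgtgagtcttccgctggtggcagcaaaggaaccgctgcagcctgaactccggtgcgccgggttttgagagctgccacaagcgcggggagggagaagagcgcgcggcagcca
Flrt3: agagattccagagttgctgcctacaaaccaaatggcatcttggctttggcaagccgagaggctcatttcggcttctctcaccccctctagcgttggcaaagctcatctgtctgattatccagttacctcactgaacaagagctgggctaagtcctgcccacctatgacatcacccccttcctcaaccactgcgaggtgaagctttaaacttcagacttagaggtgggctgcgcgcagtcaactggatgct
Sema6d: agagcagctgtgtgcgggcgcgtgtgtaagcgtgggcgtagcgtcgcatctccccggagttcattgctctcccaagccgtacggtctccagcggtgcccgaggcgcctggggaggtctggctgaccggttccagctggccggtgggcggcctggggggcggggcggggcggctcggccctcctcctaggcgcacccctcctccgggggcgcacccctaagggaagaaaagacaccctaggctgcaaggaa
Sema4f: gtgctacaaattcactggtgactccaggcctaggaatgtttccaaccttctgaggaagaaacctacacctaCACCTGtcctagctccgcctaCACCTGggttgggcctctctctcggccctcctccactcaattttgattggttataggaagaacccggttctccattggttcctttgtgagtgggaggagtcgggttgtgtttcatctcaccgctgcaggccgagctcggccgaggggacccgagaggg
Slitrk6: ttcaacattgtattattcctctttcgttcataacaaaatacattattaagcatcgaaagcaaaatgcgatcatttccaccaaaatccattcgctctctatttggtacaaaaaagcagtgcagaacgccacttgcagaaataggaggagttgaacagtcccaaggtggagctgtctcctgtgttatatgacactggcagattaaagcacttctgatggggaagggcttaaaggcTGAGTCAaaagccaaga

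The 5 windows differed in base composition and in the motifs they held. *Cntn4* and *Sema6d* were rich in G and C (70.0% and 70.4%), *Sema4f* and *Flrt3* were intermediate (55.6% and 52.0%) and *Slitrk6* was poor (40.8%). *Cntn4* held 1 AP-1 motif and 1 E-box, *Slitrk6* held 1 AP-1 motif with 10 bases between it and the start, and *Sema4f* held 2 E-boxes. The windows of *Flrt3* and *Sema6d* held none of the motifs searched, which were these 2, the forkhead motif TGTTTAC and the RFX X-box. Of the 53 member genes in the promoter table, 9.43% held TGANTCA against 6.34% of all 33469 promoters, 11.3% against 15.9% held CAGGTG, 1.89% against 3.21% held TGTTTAC and 0% against 0.0657% held the X-box. A match is a run of letters and not a measured binding site.

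Member ACS lay far from gene starts. DISTAL sites, the deposited class of sites away from gene starts, made up 91.0% of the member ACS against 79.3% of all ACS, and TSS sites, whose distance to the start is at most 999 bp, made up 3.73% against 10.9%. Of the members 29.5% touched their gene, against 30.8% of all ACS, and those outside it lay at a median of 347.1 kb from it, against 80.3 kb. The genes were also long, with a median of 39.7 kb against 18.9 kb, and had a median of 10 ACS each against 3. Member ACS were slightly less open (median 3.91 against 4.70 CPM) and of about the same width (median 357 against 373 bp).

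Between P10 and adult islets, 162 member ACS (13.7%) gained accessibility and were called Up, 101 (8.55%) lost it and were called Down, and 918 were not called. The calls are from edgeR's quasi-likelihood test over all ACS, at a p-value under 0.05 and a Benjamini-Hochberg false discovery rate (FDR) under 0.2, and a positive log2 fold change means more integrations in adults. Over all ACS, 12.3% were Up and 6.63% Down, near the shares of the members. Without P10 replicate 1 the order turned for Up calls (11.2% of members against 12.8% of all ACS), and without P10 replicate 3 for Down calls (3.64% against 4.17%). The median log2 fold change was -0.01 for the members and -0.01 for all ACS. The groups did not overlap at 182 member ACS with adults above (15.4%, against 13.8% of all ACS) and at 131 with adults below (11.1%, against 10.9%). The excess of Up over Down depended on the scaling. With column sums as library sizes 137 members were Up and 140 Down, and with the total reads of each library 16 were Up and 670 Down, while the median of all ACS moved to -0.10 and -0.84. The count of Down members also rested on P10 libraries, at 50 without P10 replicate 2 and 43 without P10 replicate 3.

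Sites that gained and sites that lost accessibility differed in how open they were. Up members had a median of 9.13 CPM, Down members 4.31 CPM and members not called 3.28 CPM. The same order of Up and Down was seen over all ACS, at 8.26 and 3.80 CPM. By class, 151 of the 1075 DISTAL members were Up (14.05%, against 13.8% of all DISTAL ACS) and 89 were Down (8.28%, against 6.45%). Of the 44 TSS members, 2 were Up (4.55%, against 2.73% of all TSS ACS) and 8 were Down (18.2%, against 7.87%). Of the 348 members that touched their gene, 54 were Up (15.5%, against 12.2% of all such ACS) and 36 Down (10.3%, against 7.03%). Of the 323 that lay 500 kb or more from it, 40 were Up (12.4%, against 11.2%) and 26 Down (8.05%, against 5.93%).

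**Figure D1:**
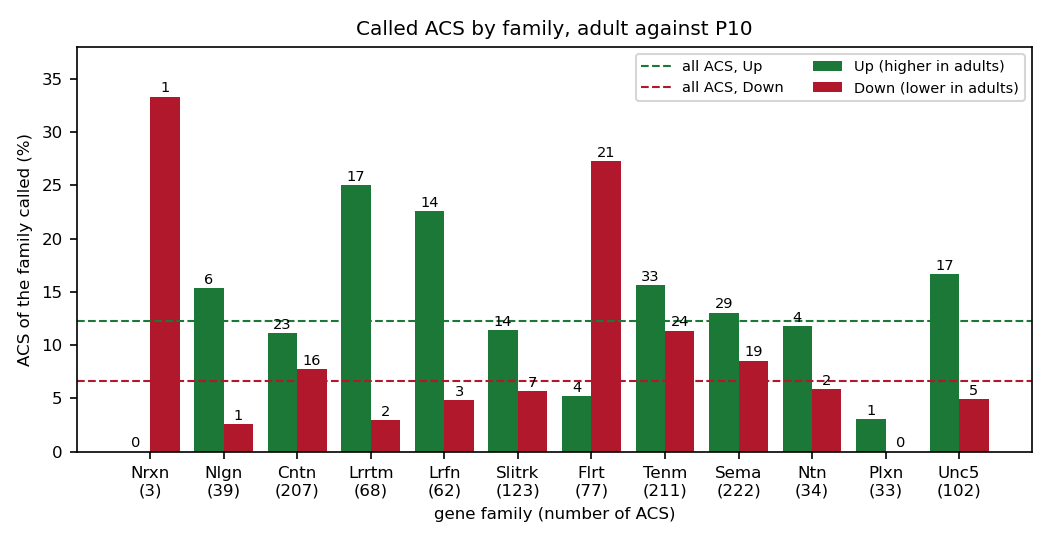
Share of the ACS of each gene family (vertical axis, percent) called Up (green) or Down (red) in adults, with the number of calls above each bar, the number of ACS under each name and dashed lines at the shares over all ACS (12.3% and 6.63%). The Lrrtm and Lrfn bars for Up and the Flrt bar for Down stand above the lines, while Plxn has 1 call among 33 ACS and Nrxn has 3 ACS in all.

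The 12 families did not move alike, as the bars by family show. In the 8 adhesion families together, 111 of 790 ACS were Up (14.1%) and 75 Down (9.49%), against 12.3% and 6.63% of all ACS. In the ligands (semaphorins and netrins) 33 of 256 were Up (12.9%) and 21 Down (8.20%). In the receptor families (plexins and UNC5) 18 of 135 were Up (13.3%) and 5 Down (3.70%). The *Lrrtm* family had the highest share of Up calls, 17 of 68 ACS (25.0%) with 2 Down, followed by *Lrfn* with 14 of 62 (22.6%) and 3 Down. *Flrt* was the only family of more than 3 ACS with more Down than Up calls, 21 of 77 (27.3%) against 4. Without Adult replicate 4 or P10 replicate 2 the *Lrrtm* family had 11 Up calls, and without P10 replicate 3 the *Flrt* family had 12 Down calls. Under the scaling to total reads every family had more Down than Up calls, so the median of each family was also set against that of all ACS. On that scale the *Lrrtm* median was 0.27 to 0.28 above and the *Flrt* median 0.21 to 0.22 below the median of all ACS under all 3 library scalings and the TMM fit. Other library sizes move all ACS nearly alike, so these differences could hardly change and their steadiness adds no support.

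*Flrt3* had the most Down calls of the member genes without an Up call. It encodes a leucine-rich repeat protein that binds latrophilins and UNC5 receptors and modulates FGF signalling. Its 28 ACS reached from 118.1 kb downstream to 1094.4 kb upstream of its start, and on GRCr8 the gene lies inside *Macrod2*. Of the 28, 14 were Down and 0 Up, and 24 had a log2 fold change below 0. No Up call was made under any alternative, and 6 Down calls were left without P10 replicate 3 and 9 without P10 replicate 2. The median of chromosome 3 was -0.17 and that of *Flrt3* -0.54.

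The ACS over the *Flrt3* start (chr3:141146714-141147311) measured 18.7, 19.4 and 15.3 CPM in the adult libraries and 28.6, 41.2 and 39.5 CPM in the P10 libraries. All adult values were below all P10 values, with a log2 fold change of -1.03 (SE 0.19, edgeR FDR 0.000604). A site 75.9 kb upstream (chr3:141222938-141223662) measured 1.45, 4.58 and 4.51 CPM in adults and 8.37, 10.5 and 11.1 CPM at P10, with 1 adult library well below the other 2 and no overlap. Its log2 fold change was -1.53 (SE 0.32, edgeR FDR 0.00192). At 481.7 kb upstream (chr3:141628737-141629048) the values were 6.14, 4.58 and 4.25 CPM in adults and 9.90, 9.41 and 11.5 CPM at P10 (log2 fold change -1.03, SE 0.25, edgeR FDR 0.00857). Each of these 3 sites stayed Down whichever of the 6 libraries was left out. The called sites with the smallest p-values, here and below, were picked among those whose groups did not overlap. The lack of overlap at these sites therefore follows from the choice and adds no separate evidence. Summed over its 28 ACS, *Flrt3* had 99.3, 118.3 and 99.0 CPM in adults and 136.0, 174.1 and 191.7 CPM at P10, again without overlap, with a log2 fold change of -0.66 (SE 0.13, edgeR FDR 0.00705 over all genes).

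**Figure D2:**
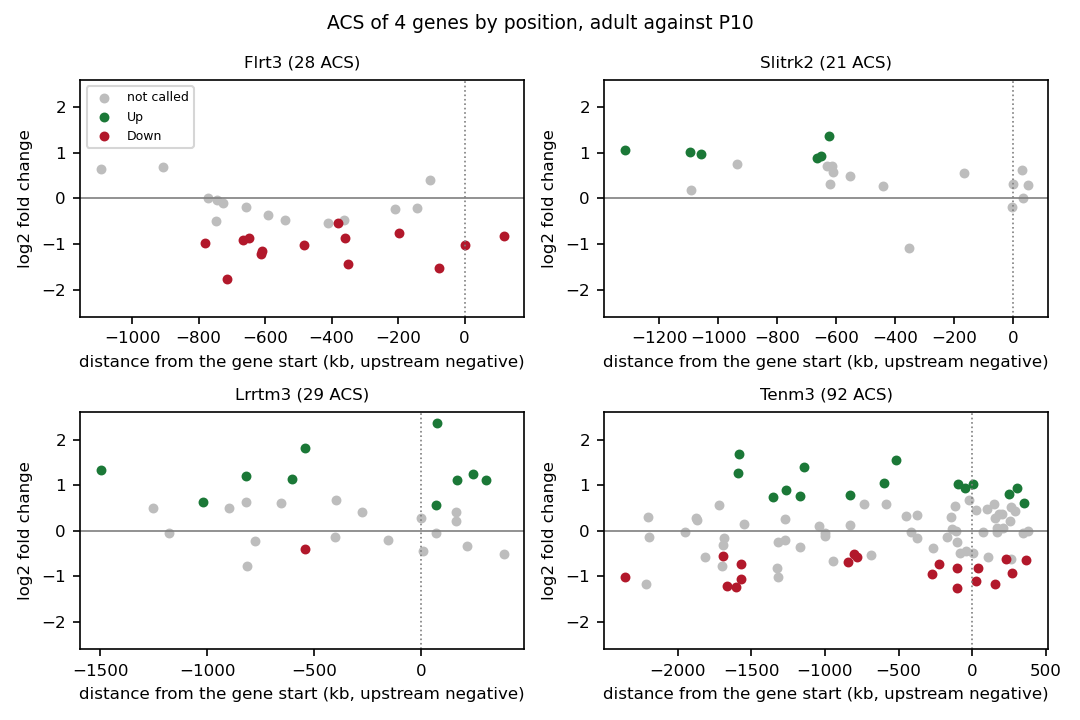
Log2 fold change, adult against P10 (vertical axes), of every ACS of 4 genes by its distance from the gene start in kb (horizontal axes, upstream negative, dotted line at the start), coloured by call. The 14 Down sites of *Flrt3* are spread along the region, 6 Up sites of *Slitrk2* lie more than 600 kb upstream, and Up and Down sites of *Tenm3* are mixed.

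Its relative *Flrt2*, which binds UNC5D and latrophilins, had sites of both kinds within 1 region. Of 45 ACS, 7 were Down and 4 Up. A site 159.1 kb upstream (chr6:128580035-128580331) measured 0.723, 1.66 and 1.29 CPM in adults and 4.93, 5.06 and 4.70 CPM at P10, and its log2 fold change was -2.01 (SE 0.36, edgeR FDR 0.000469). A site 135.5 kb upstream (chr6:128603620-128604208) measured 3.52, 3.21 and 2.32 CPM in adults and 8.69, 8.70 and 8.88 CPM at P10, with a log2 fold change of -1.52 (SE 0.28, edgeR FDR 0.000511). The P10 libraries lay close together at both sites and the groups were apart. In contrast, the most open *Flrt2* site (the one with the highest mean CPM), 378.5 kb downstream (chr6:129117611-129118405), measured 159.3, 103.4 and 158.2 CPM in adults and 89.2, 95.9 and 107.9 CPM at P10, with 1 adult library inside the P10 range. It was Up with a log2 fold change of 0.52 (SE 0.16, edgeR FDR 0.0376), and below 0 under the scaling to total reads.

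The *Lrrtm* genes encode postsynaptic leucine-rich repeat proteins that bind neurexins. *Lrrtm3* had 10 Up and 1 Down of 29 ACS, with 8 to 9 Up in the fits that left out a library. On GRCr8 it lies inside *Ctnna3*, a catenin gene. Its ACS 70.3 kb into the gene (chr20:28131105-28131413) was the member with the smallest p-value. It measured 24.9, 23.8 and 18.8 CPM in adults and 4.32, 4.99 and 3.91 CPM at P10, so that the adult values lay far above those of the pups. The log2 fold change was 2.36 (SE 0.23, edgeR FDR 1.90e-07). Its only Down ACS, 545.9 kb upstream (chr20:27514945-27515287), was the most open site of the family and rested on a single library, with 95.2, 117.2 and 108.5 CPM in adults and 120.5, 104.0 and 198.7 CPM at P10. That call (log2 fold change -0.40, SE 0.18, edgeR FDR 0.186) was lost in 3 of the 6 fits that left out a library, and with DESeq2 and limma voom. *Lrrtm4* had 5 Up and 1 Down of 28 ACS, with 3 Up left without Adult replicate 4 or P10 replicate 2. Its site 168.3 kb into the gene (chr4:175560228-175560787) measured 30.5, 23.7 and 31.1 CPM in adults and 6.79, 11.1 and 9.89 CPM at P10 (log2 fold change 1.62, SE 0.21, edgeR FDR 1.18e-05).

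In the *Lrfn* family, also called SALM, gains centred on *Lrfn2*, a postsynaptic adhesion protein that binds PSD-95. It had 8 Up and 0 Down of 29 ACS, and only 4 of the 29 had a log2 fold change below 0, with 5 Up left without Adult replicate 6 or P10 replicate 3. Its leading site, 173.2 kb upstream (chr9:12980867-12981302), measured 29.1, 24.0 and 26.9 CPM in adults and 6.93, 10.1 and 6.40 CPM at P10, without overlap (log2 fold change 1.78, SE 0.22, edgeR FDR 3.81e-06). Its most open site was not called, at 50.4, 39.2 and 50.9 CPM in adults and 39.8, 39.9 and 34.9 CPM at P10, with overlapping groups. *Lrfn5*, which binds presynaptic receptor phosphatases, had 5 Up and 3 Down of 21 ACS. The Down site 853.1 kb downstream (chr6:93456078-93456387) was weak, with 0.994, 0.292 and 1.16 CPM in adults and 2.28, 3.49 and 3.44 CPM at P10 (log2 fold change -1.92, SE 0.44, edgeR FDR 0.00485). *Lrfn1*, *Lrfn3* and *Lrfn4* had 12 ACS between them and 1 call.

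Neuroligin-1, the neurexin partner of excitatory synapses, had 6 Up and 1 Down of 37 ACS at *Nlgn1*. The site 398.7 kb upstream (chr2:131905362-131905773) measured 29.2, 21.0 and 29.9 CPM in adults and 5.21, 5.21 and 9.41 CPM at P10. The lowest adult library was above the highest P10 library, and the log2 fold change was 2.01 (SE 0.24, edgeR FDR 3.12e-06). *Nlgn3* had 2 ACS, both not called, of which the more open (chrX:72085746-72086641) measured 34.3, 31.1 and 35.1 CPM in adults and 41.6, 36.7 and 37.4 CPM at P10. These values did not overlap, but the log2 fold change of -0.21 (SE 0.16) gave an edgeR FDR of 0.529. *Nrxn2* was the neurexin gene among the members, with 3 ACS. Its Down site inside the gene by the start (chr1:228789674-228789984) measured 3.25, 4.67 and 3.74 CPM in adults and 7.53, 7.63 and 3.86 CPM at P10, with 1 P10 library within the adult range (log2 fold change -0.70, SE 0.30, edgeR FDR 0.171). This call held in 2 of the 6 fits that left out a library and was lost with limma voom.

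The contactins are immunoglobulin-domain proteins anchored to the cell surface. Over the *Cntn* letters 23 of 207 ACS were Up (11.1%) and 16 Down (7.73%), near the 12.3% and 6.63% of all ACS. There were 6 Down without Adult replicate 4 or P10 replicate 2 and 8 without P10 replicate 3. Without *Cntnap5b*, which had 6 Up and 3 Down, 17 of 122 were Up (13.9%) and 13 Down (10.7%). *Cntn4* had 4 Up and 5 Down of 21 ACS, with 14 below 0 and a median log2 fold change of -0.28. The site over its start was Down, and its leading Up site lay inside the gene. The ACS over its start (chr4:202256036-202256641) measured 2.26, 3.02 and 3.22 CPM in adults and 5.30, 7.35 and 5.29 CPM at P10 (log2 fold change -1.08, SE 0.30, edgeR FDR 0.0214). A weaker site 0.6 kb into the gene was also Down (log2 fold change -1.10, SE 0.48, edgeR FDR 0.176) but overlapped between the groups and was called in 2 of the 6 fits that left out a library. Farther in, at 231.7 kb (chr4:202488024-202488701), accessibility was 30.7, 27.9 and 36.4 CPM in adults and 11.0, 11.2 and 13.1 CPM at P10. This site was Up with a log2 fold change of 1.42 (SE 0.19, edgeR FDR 1.60e-05), and the smallest adult value was above the largest P10 value. The most open contactin site, 89.3 kb upstream of *Cntn3*, was not called, at 57.9, 47.6 and 48.6 CPM in adults and 53.9, 60.9 and 60.4 CPM at P10.

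**Figure D3:**
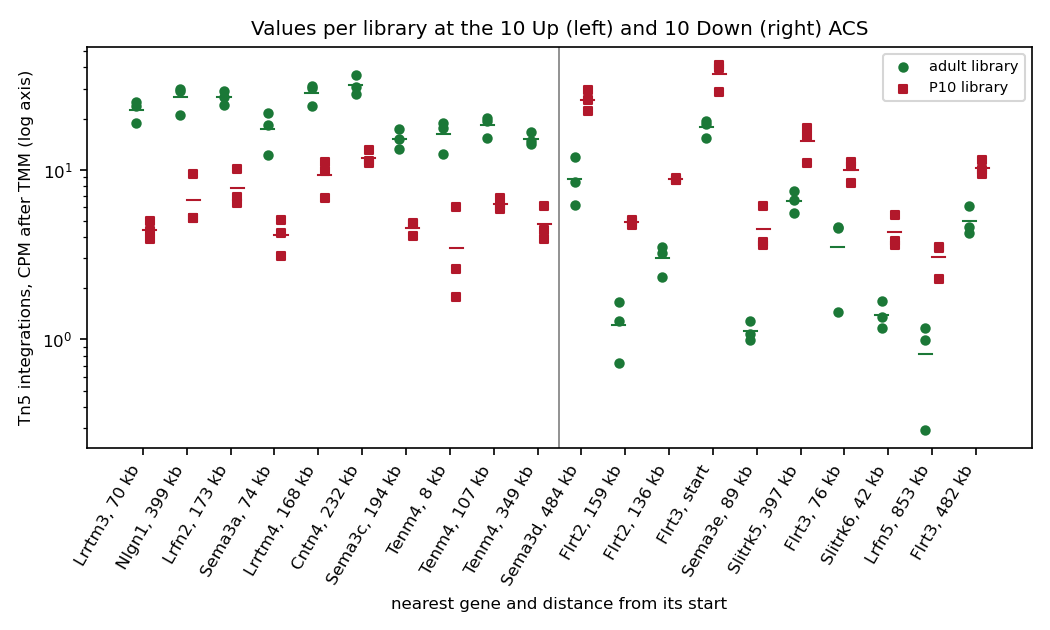
Tn5 integrations (CPM after TMM, log axis) of each adult library (green circles) and P10 library (red squares) at the 10 Up and 10 Down member ACS with the smallest p-values among those whose groups did not overlap, labelled by nearest gene and distance from its start, with short lines at the group means. The Down sites reach lower levels, to 0.292 CPM at *Lrfn5*.

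The SLITRK proteins bind presynaptic receptor phosphatases. *Slitrk2*, on chromosome X, had 6 Up and 0 Down of 21 ACS and a median log2 fold change of 0.58, against -0.14 for the chromosome. Its called sites lay 623.6 to 1317.6 kb upstream and were weak, for example 2.26, 2.73 and 1.29 CPM in adults and 0.790, 0.856 and 0.793 CPM at P10 at the site with the smallest p-value (chrX:150475264-150475466). Its log2 fold change was 1.38 (SE 0.42, edgeR FDR 0.0349). The count leaned on single libraries, with 1 Up call left without P10 replicate 1 and 3 without Adult replicate 5. *Slitrk6* had 5 Up and 4 Down of 33 ACS. Its start (chr15:98995298-98996129) was Up, with 55.1, 45.0 and 53.8 CPM in adults and 36.6, 37.4 and 44.4 CPM at P10, a narrow gap between the groups (log2 fold change 0.38, SE 0.16, edgeR FDR 0.163). That call held in 2 of the 6 fits that left out a library and was lost with DESeq2 and with column sums, and the value fell below 0 under the scaling to total reads. A site 41.5 kb downstream of the same start (chr15:98954312-98954668) was Down, with 1.36, 1.17 and 1.68 CPM in adults and 3.81, 5.42 and 3.59 CPM at P10 (log2 fold change -1.61, SE 0.36, edgeR FDR 0.00365). *Slitrk5* had a Down site 396.6 kb upstream (chr15:99903432-99904081) that measured 6.60, 5.55 and 7.48 CPM in adults and 11.0, 15.8 and 17.6 CPM at P10 (log2 fold change -1.18, SE 0.24, edgeR FDR 0.00183).

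The teneurins, large transmembrane proteins that bind latrophilins, held 211 ACS, 33 Up (15.6%) and 24 Down (11.4%), against 12.3% and 6.63% of all ACS. *Tenm3* had the most called ACS of any member gene, 34 of 92, of which 15 were Up and 19 Down. Up and Down sites were mixed along more than 2 Mb, from 2361.4 kb upstream of the start to 363.5 kb inside it, and the median log2 fold change was -0.04. The log2 fold changes ran from 0.60 to 1.68 among Up and from -1.27 to -0.51 among Down sites. The Down calls at *Tenm3* rested on single libraries, with 3 left without P10 replicate 3, 4 without P10 replicate 2, 9 without Adult replicate 5 and 12 without Adult replicate 4, while the Up calls numbered 12 to 19. Its most open site was not called, at 58.2, 35.9 and 55.7 CPM in adults and 50.5, 49.8 and 53.5 CPM at P10.

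*Tenm4* had 11 Up and 4 Down of 81 ACS, while its median log2 fold change was -0.14 and 46 sites were below 0. Up calls numbered 8 to 10 when a library was left out, and without Adult replicate 5 there were 10 Up and 11 Down. The Down calls were 6 without P10 replicate 1, 1 without P10 replicate 3 and 2 without P10 replicate 2. A PROXIMAL site 8.0 kb into the gene (chr1:167623248-167623765) measured 18.8, 12.4 and 17.5 CPM in adults and 6.04, 1.78 and 2.59 CPM at P10. The P10 libraries were spread at this site but stayed below every adult value (log2 fold change 2.19, SE 0.31, edgeR FDR 3.16e-05). A site at 106.8 kb (chr1:167721995-167722370) measured 20.2, 15.4 and 19.3 CPM in adults and 6.09, 5.85 and 6.77 CPM at P10 (log2 fold change 1.55, SE 0.22, edgeR FDR 3.36e-05). A site 348.8 kb upstream (chr1:167266463-167266888) measured 14.7, 14.1 and 16.6 CPM in adults and 6.14, 3.92 and 4.39 CPM at P10 (log2 fold change 1.64, SE 0.24, edgeR FDR 4.73e-05). *Tenm2*, also a teneurin gene, had 7 Up and 1 Down of 38.

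**Figure D4:**
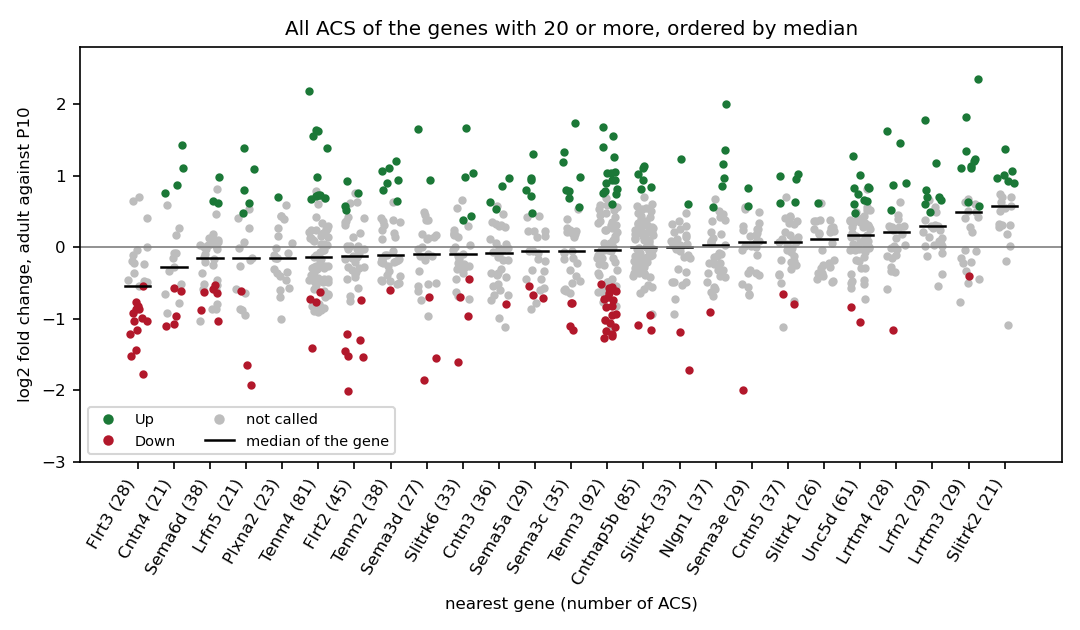
Log2 fold change, adult against P10 (vertical axis), of every ACS of the 25 member genes with 20 or more ACS, ordered by the median of the gene (black line), with Up in green, Down in red and sites not called in grey. *Flrt3* is lowest with a median of -0.54 and *Slitrk2* highest with 0.58, and most other genes hold calls of both kinds around 0.

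Among the guidance ligands, the semaphorins had 29 Up (13.1%) and 19 Down (8.56%) of 222 ACS, near the 12.3% and 6.63% of all ACS. There were 16 Up without P10 replicate 2, 19 Up without Adult replicate 4 and 9 Down without P10 replicate 3. Class 3 semaphorins, the secreted ones that act through neuropilins and plexins, had 15 Up (13.2%) and 10 Down (8.77%) of 114. *Sema3c* had 8 Up and 4 Down of 35 ACS, with 5 Up left without Adult replicate 6 or P10 replicate 1, 1 Down left without P10 replicate 3 and 2 Down left without Adult replicate 4, Adult replicate 6 or P10 replicate 2. Its site downstream of the gene, 194.0 kb from the start (chr4:14270558-14270894), measured 15.2, 17.4 and 13.1 CPM in adults and 4.83, 4.78 and 4.07 CPM at P10. The groups were far apart, with a log2 fold change of 1.74 (SE 0.24, edgeR FDR 1.70e-05). *Sema3a*, a repellent of axons, had 3 Up and 0 Down of 15 ACS, and its site 73.8 kb upstream (chr4:18428387-18428848) measured 21.6, 12.2 and 18.4 CPM in adults and 5.07, 4.21 and 3.12 CPM at P10 (log2 fold change 2.07, SE 0.26, edgeR FDR 5.98e-06).

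Other class 3 genes held sites called in both directions or Down alone. *Sema3d* had 2 Up and 3 Down of 27 ACS, with Up sites at log2 fold changes of 0.94 and 1.65, and *Sema3e* had 2 Up and 1 Down of 29, with Up sites at 0.57 and 0.83. *Sema3d* had the Down member with the smallest p-value, downstream of the gene and 483.9 kb from its start (chr4:18875241-18875883), with 8.40, 6.23 and 11.9 CPM in adults and 22.0, 25.7 and 29.6 CPM at P10. The highest adult value was below the lowest P10 value, as the choice of such sites required, and the log2 fold change was -1.56 (SE 0.23, edgeR FDR 4.27e-05). *Sema3e*, which binds plexin-D1 directly, had its Down site 88.6 kb inside the gene (chr4:17474641-17475170) at 0.994, 1.07 and 1.29 CPM in adults and 3.77, 6.13 and 3.59 CPM at P10 (log2 fold change -2.00, SE 0.38, edgeR FDR 0.000724). Sites over the starts of *Sema3b* and *Sema3f*, which lie near each other on chromosome 8, were also Down. *Sema3b* (chr8:115716959-115717353) measured 1.63, 2.53 and 2.45 CPM in adults and 5.25, 3.85 and 3.12 CPM at P10 (log2 fold change -0.90, SE 0.34, edgeR FDR 0.104). *Sema3f* (chr8:115824272-115824725) measured 5.69, 7.60 and 7.09 CPM in adults and 12.1, 9.84 and 8.88 CPM at P10 (log2 fold change -0.60, SE 0.24, edgeR FDR 0.136). Neither pair of groups overlapped, but the calls held in only 4 and 2 of the 6 fits that left out a library.

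Of the membrane-bound semaphorins, *Sema5a* had 6 Up and 3 Down of 29 ACS and *Sema4g* 1 Up of 2. *Sema4f* was the only membrane-bound semaphorin gene called by the sum over its ACS. Its ACS over the start (chr4:178440304-178440983) measured 56.8, 55.5 and 59.6 CPM in adults and 45.0, 45.0 and 41.3 CPM at P10, without overlap (log2 fold change 0.39, SE 0.15, edgeR FDR 0.123). The call held in 3 of the 6 fits that left out a library and was lost with column sums, and the value fell below 0 under the scaling to total reads. In all, 4 of its 9 ACS were Up and 0 Down, with 1 Up left without P10 replicate 2 or P10 replicate 3 and 2 without Adult replicate 4 or Adult replicate 6. *Sema6d*, a ligand of plexin-A1, had 3 Up and 6 Down of 38 ACS. Its start (chr3:123424075-123425254) measured 25.0, 26.0 and 32.4 CPM in adults and 41.0, 37.7 and 41.8 CPM at P10, and was Down whichever library was left out (log2 fold change -0.53, SE 0.17, edgeR FDR 0.0456, with a chromosome 3 median of -0.17).

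The netrin letters held 34 ACS, 4 Up (11.8%) and 2 Down (5.88%), near the 12.3% and 6.63% of all ACS. No Down call was left without Adult replicate 4, P10 replicate 2 or P10 replicate 3. *Ntn4*, a basement membrane netrin, had 2 of its 5 ACS Up and 0 Down. *Ntng1*, an anchored netrin-G, had 2 Up and 1 Down of 17. Its site about 12 kb inside the gene (chr2:232528923-232529379) measured 16.4, 15.8 and 19.5 CPM in adults and 9.06, 8.13 and 8.78 CPM at P10 (log2 fold change 0.99, SE 0.21, edgeR FDR 0.00289). By its start (chr2:232540958-232541766) it was Down, with 3.52, 6.04 and 7.09 CPM in adults and 7.62, 10.4 and 8.51 CPM at P10. The gap between the groups was small there, and the call (log2 fold change -0.68, SE 0.27, edgeR FDR 0.129) held in 3 of the 6 fits that left out a library. The most open site of the family, 105.3 kb upstream of *Ntng1*, measured 41.3, 31.0 and 33.8 CPM in adults and 35.4, 32.4 and 40.4 CPM at P10 and was not called.

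Among the receptors, plexin ACS were weaker, with a median of 2.58 CPM against 7.06 CPM for the *Unc5* letters. Of the plexins, the semaphorin receptors, 1 of 33 ACS was called, an Up site 37.2 kb inside *Plxna2* (chr13:117959800-117960106) with 12.02, 12.9 and 12.1 CPM in adults and 7.58, 7.77 and 7.30 CPM at P10. Replicates lay close together in both groups (log2 fold change 0.71, SE 0.22, edgeR FDR 0.0448), and the value fell below 0 under the scaling to total reads. *Plxna2* was also not called over its start, at 26.9, 24.3 and 30.9 CPM in adults and 26.0, 21.9 and 25.7 CPM at P10. Of the 4 UNC5 netrin receptor genes, 13 of 89 ACS were Up (14.6%) and 5 Down (5.62%), near the 12.3% and 6.63% of all ACS. *Unc5d*, a receptor of netrin and FLRT2, had 10 Up and 2 Down of 61 ACS, with 4 Up without P10 replicate 2, 14 Up without Adult replicate 6, 5 Down without Adult replicate 4 and 0 Down without P10 replicate 3. Its most open site, 814.1 kb upstream (chr16:65866860-65867781), was the most open ACS of the receptor families and was not called, at 204.9, 216.4 and 155.3 CPM in adults and 114.5, 162.2 and 207.1 CPM at P10. *Unc5cl*, which shares the letters but encodes a death domain protein and no netrin receptor, had 4 Up and 0 Down of 12 ACS, with 2 Up left without P10 replicate 3. Its site 30.0 kb from the start, beyond the gene end (chr9:13399291-13399929), measured 25.2, 17.1 and 21.3 CPM in adults and 13.2, 6.85 and 9.36 CPM at P10 (log2 fold change 1.11, SE 0.23, edgeR FDR 0.00231).

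Calls seldom covered a whole gene. At least 1 ACS was called in 42 of the 63 genes, in 23 of them in both directions, in 12 as Up only and in 7 as Down only. The same counts were not made over all genes, which had a median of 3 ACS against 10 for the members. These counts therefore have no background to be read against. Of the 21 genes with no call, 18 had 5 or fewer ACS. When the counts were summed over all ACS of a gene, 6 of the 63 member genes were Up and 2 Down, against 10.6% Up and 7.71% Down of all 14736 genes. Neither member share was above that of all genes. The Up genes were *Unc5cl* (log2 fold change 0.55, SE 0.13, edgeR FDR 0.0183), *Ntn4* (0.51, SE 0.14, edgeR FDR 0.0353), *Sema4f* (0.49, SE 0.11, edgeR FDR 0.0134), *Slitrk2* (0.49, SE 0.15, edgeR FDR 0.0699), *Lrfn2* (0.42, SE 0.13, edgeR FDR 0.0735) and *Lrrtm4* (0.42, SE 0.14, edgeR FDR 0.0789). The Down genes were *Flrt3*, given above, and *Sema3f* (-0.56, SE 0.22, edgeR FDR 0.140), which had 2 ACS. Without P10 replicate 2, 3 genes were Up, and the number Down was 1 without Adult replicate 4, Adult replicate 6 or P10 replicate 2 and 4 without P10 replicate 3.

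**Figure D5:**
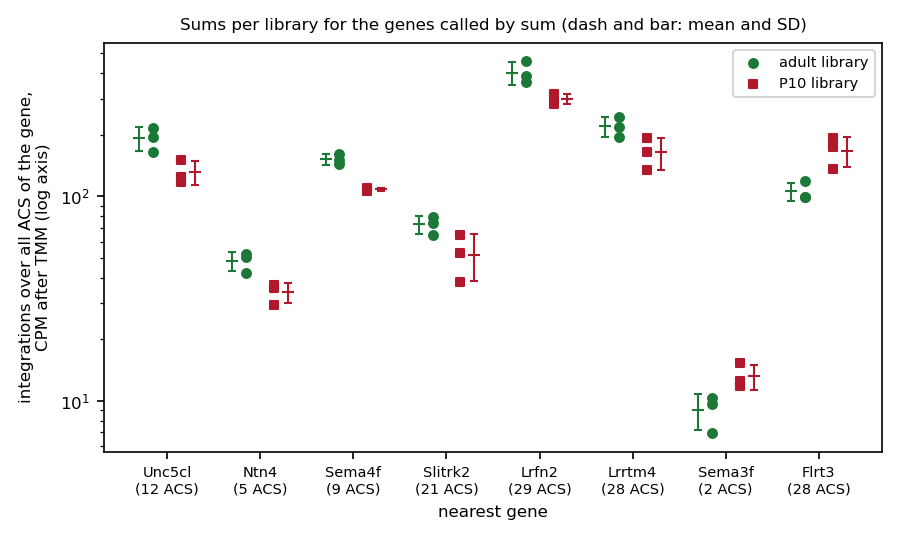
Integrations summed over all ACS of a gene (CPM after TMM, log axis) in each adult library (green circles) and P10 library (red squares) for the 8 member genes called by their sum, with dashes and bars for the mean and SD of each group (n = 3). *Sema4f* shows 143.1 to 161.2 CPM in adults against 106.6 to 109.5 CPM at P10, and the groups overlap at *Slitrk2*, where the lowest adult library is at 64.7 and the highest P10 library at 65.0 CPM.

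The sums per gene were far apart for *Sema4f*, at 151.2, 143.1 and 161.2 CPM in adults and 107.6, 109.5 and 106.6 CPM at P10. *Lrfn2* measured 387.0, 360.7 and 457.8 CPM in adults and 282.7, 317.4 and 301.1 CPM at P10. *Unc5cl* measured 195.8, 164.1 and 216.2 CPM in adults and 150.6, 117.5 and 124.2 CPM at P10. None of these 3 genes overlapped between the groups. *Slitrk2* overlapped slightly, with 64.7, 79.5 and 74.2 CPM in adults and 38.1, 52.5 and 65.0 CPM at P10.

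Openness of gene starts was compared per kb of site. Of the 63 genes, 30 had an ACS over their start, with a median of 26.3 CPM per kb, against 27.5 for the 8659 such ACS of all genes. Of the 30, 2 were Up (6.67%) and 5 Down (16.7%), against 2.22% and 7.88% of those of all genes. *Unc5d* was the most open, at 114.9, 95.7 and 109.3 CPM per kb in adults and 89.3, 99.4 and 99.1 at P10. It was above *Sema4f* in every library. *Sema4f* followed at 83.6, 81.6 and 87.6 in adults and 66.2, 66.2 and 60.8 at P10, then *Lrrtm3* with 80.0, 66.1 and 71.1 in adults and 50.6, 65.0 and 63.9 at P10. Means over all libraries of *Lrrtm3*, *Sema3d* and *Slitrk6* were 66.1, 64.1 and 54.5, and the libraries of these neighbours in the order overlapped. *Flrt3* stood at 45.4, from 25.7 to 32.4 in adults and 47.8 to 68.9 at P10. *Cntn4* had the least open start of the 30, with a mean of 7.27.

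Summed over all member ACS, the deposited counts made up 0.895%, 0.901% and 0.927% of the integrations of the adult libraries and 0.796%, 0.882% and 0.940% of those of the P10 libraries. The groups overlapped, with a difference of 0.035 percentage points (adult 0.907% ± 0.017, P10 0.873% ± 0.072, SD, n = 3, two-sided exact permutation p = 0.60, where 3 against 3 cannot go below 0.1). P10 replicate 1 was the lowest library, and without it the difference was -0.00358 percentage points. After TMM scaling the sums were 9051 to 9627 CPM in adults and 7836 to 9000 CPM at P10. On that scale the sum over all ACS was also higher in every adult library, so this gap is not particular to the members. Of the 12 families, *Lrfn* was the only one whose shares did not overlap, at 0.066% ± 0.003 in adults and 0.059% ± 0.001 at P10 (SD, n = 3, exact permutation p = 0.10, 0.69 after Benjamini-Hochberg adjustment over the 12 families).

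Partners of these proteins that the symbol rule did not catch were counted with the same fit. Over 38 genes, 89 of 578 ACS were Up (15.4%) and 39 Down (6.75%), near the background of 12.3% and 6.63%. Without P10 replicate 2, 20 were Down. *Nrp1*, a co-receptor of class 3 semaphorins and of VEGF, had 12 Up and 0 Down of 26 ACS, with 9 to 12 Up and at most 1 Down when a library was left out. Its relative *Nrp2* had 6 Up and 0 Down of 17, with 3 Up left without P10 replicate 2. The netrin receptor gene *Dcc* had 6 Up and 0 Down of 16, with 3 Up left without Adult replicate 4 or P10 replicate 3, and *Cbln1*, whose product bridges neurexins to glutamate receptors, 5 Up and 0 Down of 16. Its relatives *Cbln2* and *Cbln4* had 2 Up and 1 Down of 25 and 4 Up and 3 Down of 19. Under the scaling to total reads *Nrp1*, *Nrp2*, *Dcc* and *Cbln1* each had more Down than Up calls. Their medians were 0.26 to 0.41 above that of all ACS under the TMM fit and the other library scalings. As for the families, a change of library sizes could hardly alter these differences, which add no support. *Lphn3*, a latrophilin and receptor of teneurins and FLRT proteins, had 8 Up and 8 Down of 69, and the latrophilin *Lphn2* had 1 Up and 6 Down of 23. *Cask*, a scaffold that binds neurexins, had 2 Up and 5 Down of 30. *Nrp1* is also expressed by endothelial cells, whose marker sum was higher in all adult libraries, as was the sum over all ACS. The part of these cells in the *Nrp1* calls was not tested.

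Similar families gave similar shares. Cadherin and protocadherin genes had 118 of 867 ACS Up (13.6%) and 46 Down (5.31%), and Slit, Robo, Eph and ephrin genes had 81 of 588 Up (13.8%) and 40 Down (6.80%). The share of Up calls among the members, 13.7%, lay between these 2 values, and the share of Down calls, 8.55%, was above both. Of the 101 Down members, 21 were *Flrt* sites.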

How the data were processed

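ATAC-seq reads of 3 adult and 3 P10 islet libraries had been aligned by the authors to Rn5 with BWA 0.7.13, stripped of mitochondrial and poorly mapped reads with SAMtools 1.3, and used for peak calling with MACS2 2.1.1 on the concatenated libraries of each age. The authors deposited, with the nearest gene and class of each ACS, raw counts of integrations that pyDNase had made for every library. The table also holds the columns of their own test, which were not used. Whether PCR duplicates were removed is not given in the sources used here.

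Each of the 101603 distinct ACS among 101941 listed entries entered once. Counts were fitted with edgeR 4.0.16 (TMM, glmQLFit, glmQLFTest, age as the only term, no filter) in R 4.3.3, with Benjamini-Hochberg adjustment over all ACS, and again on sums per nearest gene. ACS were called at p under 0.05 and FDR under 0.2, the limits of the study. Standard errors were derived as the absolute log2 fold change over the square root of the F statistic. The method was tested on simulated data in which 200 of 101603 ACS had a log2 change of 1. It recovered 38.5% of them and called 16 unchanged ACS, so an ACS that was not called may still differ. Far fewer ACS changed there than were called in the data, and the FDR depends on that number. Shares of integrations were compared by exact permutation. Adult replicates were separate rats, and whether each P10 library held pups of 1 litter is not given in the sources used here. The p-values therefore measure the spread between these libraries. In edgeR that spread is largely shared across ACS and is not that of a single ACS alone.

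Member genes, partner lists and marker lists were chosen with earlier results of these data known. Named ACS were the 10 Up and 10 Down with the smallest p without overlap, the ACS of highest mean CPM and the leading called ACS of each family, and every called TSS site. At those 10 Up and 10 Down ACS the lack of overlap was fixed by the choice and is no separate evidence. The 5 genes with most calls and the genes called by sum were also named, and sites at *Slitrk2* and the partner genes named were chosen after their values were seen. Other library sizes, a count filter, DESeq2 1.42.0, limma 3.58.1 voom, a stricter FDR and leaving out each library were tried. Sequences of the ACS on Rn5 were not analysed here.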

Additional observations from a re-analysis of the deposited data

How the results depend on the processing

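Of the 1181 member ACS, 162 Up and 101 Down became 16 and 670 with the total reads of each library as library sizes, which moved the median of all ACS to -0.84, and 93 and 27 at an FDR under 0.05. Under the other library sizes, the count filter, DESeq2 and limma voom, and with *Cntnap* genes left out or every entry kept, the counts were 137 to 162 Up and 85 to 140 Down. Leaving out 1 library gave 113 to 167 Up and 43 to 110 Down, with the fewest Down calls without P10 replicate 3. Gene sums gave 3 to 8 genes Up (6 with all libraries) and 1 to 4 Down (2 with all libraries). The difference in the share of integrations ran from -0.00358 to 0.0683 percentage points and reversed without P10 replicate 1. Total reads reversed the log2 fold change at the *Flrt2* site 378.5 kb downstream (-0.31), at *Plxna2* 37.2 kb inside (-0.13) and at its start (-0.70), at the starts of *Sema4f* (-0.46) and *Slitrk6* (-0.45), and at the most open sites of *Lrfn2* (-0.56), *Sema3c* (-0.57) and *Unc5d* (-0.52). Leaving out a library also changed the sign at the most open sites of *Nrxn2* (-0.27 to 0.0060), *Tenm3* (-0.17 to 0.15) and *Ntng1* (-0.16 to 0.060), none of them called. Chosen after seeing the data, leaving out *Cntnap5b*, *Unc5cl* and *Unc50* gave 152 Up and 98 Down, and sites within 500 kb of the gene gave 122 and 75. The cause was not tested. No paired analysis was possible because the ages share no replicate number. Adult libraries held fewer integrations, so weak ACS limit what could be called.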
